A study of Homo sapiens with 4 samples.

Results

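The p53 pathway was followed here through 30 genes, most of them known transcriptional targets of p53, together with the p53 inhibitor gene MDM4. Each was matched by its symbol to 1 row of the deposited count table, and all 30 were found among its 57820 rows. The RNA came from the established glioma line U87, of human origin, sequenced as 2 groups of 2 libraries. The control group, labelled shNT, carried a control hairpin, and the group labelled shGlud1 carried a hairpin directed at GLUD1, the gene of a glutamate dehydrogenase of mitochondria. All 4 libraries came from cells in low glucose for 6 h, so no library shows the pathway in ordinary glucose, and the labels name no second GLUD1 hairpin. Whether the 2 libraries of each group were grown as separate cultures is not stated, so the p-values measure the spread between these libraries only, and that spread may be a technical one.

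The tumour suppressor p53 is a transcription factor that binds a response element made of 2 similar half-sites. It is held low by the ubiquitin ligase MDM2 and its partner MDM4, and MDM2 is itself a p53 target, which closes a feedback loop. When DNA damage, nutrient shortage or other stress stabilises p53, its targets can slow the cell cycle, repair DNA, adjust redox balance and metabolism, or start cell death. Many of these genes also answer to other stress factors, so their RNA is not a direct reading of p53. U87 cells are known to have lost the 9p21 region that holds CDKN2A, whose product ARF restrains MDM2.

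The libraries matched what is known of the line and of the knockdown. CDKN2A, CDKN2B and MTAP, the 9p21 genes, had 0 counts in every library. Of 7 glial and neural progenitor markers, VIM and CD44 were abundant, NES was present, and GFAP, S100B, OLIG2 and SOX2 stayed under 1 CPM (the usual CPM unit of counts scaled to library size, as described below) in every library. Markers of this list were thus present in part and near 0 in part. On the log2 scale NES rose by 1.93, and CD44 was not called (0.09). VIM, the most abundant of the list, rose by 0.99, from a mean of 2352 CPM in shNT to 4675.5 CPM in shGlud1. The summed level of that list was 3012 to 3157 CPM in shNT and 5210 to 5738 CPM in shGlud1. Of 5 myeloid and lymphoid markers, 3 were under 1 CPM in every library (sum 359 to 401 CPM in shNT and 276 to 290 CPM in shGlud1, nearly all from CD68), with AIF1 at 0. The sums were 0.850 to 1.03 and 0.998 to 1.75 CPM for 3 endothelial markers, 36.3 to 38.4 and 19.2 to 23.9 CPM for 4 epithelial markers, and 14.4 to 14.6 and 7.15 to 9.63 CPM for 4 neuron markers. GLUD1 had 1066 and 1171 expected counts in shNT and 680 and 1026 in shGlud1, and fell by 0.98 on the log2 scale (SE 0.13, edgeR quasi-likelihood adjusted p = 1.26e-12). Scaled by library totals alone it had 64.4 and 64.6 CPM in shNT and 39.1 and 55.3 CPM in shGlud1, and fell by 0.45. Library totals were 16546849 to 18537314 expected counts. The part of any change in cell mixture in the results below was not tested.

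Levels are given as CPM with TMM factors and as mean ± SD with n = 2. These factors scale each library on the assumption that most genes do not differ. Fold changes are log2 of shGlud1 over shNT with their standard error. A gene was called when its adjusted p over the 14616 genes tested was under 0.05. Of those genes 61% were called, 31.9% as higher and 29.1% as lower. A call was therefore common, and the counts below are to be read against these shares. Gene positions are those of GENCODE 29 on GRCh38.

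Some members hold a match to the p53 consensus beside a transcription start, and these are shown because they bear on p53 without any use of the counts. In RefSeq's windows from 250 bases before to 50 bases after each gene start (GRCh38.p14), the p53 consensus was searched as 2 adjoining half-sites with no spacer. Up to 3 mismatches were allowed, none of them at the fixed C and G of a half-site. The consensus reads the same on both strands, so 1 search covers both. Of 27 members with a window, 7 held a match in at least 1 of their windows (25.9%), against 373 of 27305 genes (1.37%). RefSeq gave more than 1 start for some genes, so these 27 members had 41 windows in all. PHLDA3, RRM2B and TP53INP1 were not matched to a window. The matched sites began at positions from -122 (FAS) to 28 (GDF15) relative to the gene start. The 7 matches follow, 5′ to 3′ on the gene's strand, with the 20 bases of the matched site in capitals and up to 5 bases on each side.
MDM2 (chr12:68808918-68808947, plus strand, 2 mismatches): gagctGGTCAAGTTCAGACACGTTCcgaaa
DDB2 (chr11:47214964-47214993, plus strand, 1 mismatch): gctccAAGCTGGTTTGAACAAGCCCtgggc
AEN (chr15:88621301-88621330, plus strand, 2 mismatches): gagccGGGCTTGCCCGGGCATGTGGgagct
FAS (chr10:88991304-88991333, plus strand, 2 mismatches): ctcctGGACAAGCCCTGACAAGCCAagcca
SESN1 (chr6:109009013-109009042, minus strand, 3 mismatches): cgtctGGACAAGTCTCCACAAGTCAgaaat
FDXR (chr17:74872991-74873020, minus strand, 3 mismatches): ggcccGGGCAGGAGCGGGCTTGCCCtgcgg
GDF15 (chr19:18386181-18386207, plus strand, 3 mismatches): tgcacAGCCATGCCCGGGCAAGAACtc

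Among the members with a matched site, FAS, MDM2 and SESN1 rose, AEN and GDF15 fell, and DDB2 and FDXR were not called. As shares of the members with a window, 3 of 9 that rose, 2 of 7 that fell and 2 of 9 not called held a match. A matched site was thus found in each of these classes. Lists of p53 targets are drawn in part from genes with such sites, and a match is a description of letters and not a test of binding. A member with no match in these short windows may carry its element elsewhere, as is known for CDKN1A.

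The 30 genes did not move as a block. Of the 28 with enough counts to be tested, 11 rose (39.3%), 8 fell (28.6%) and 9 were not called, close to the shares over all genes. Their median log2 fold change was 0.04, beside 0.06 over all genes tested. The groups did not overlap for 20 of the 28, with shGlud1 above in 11 (39.3%, against 42.8% of all genes tested) and below in 9 (32.1%, against 38.2%). Of the called members 6 differed at least 2-fold. SPATA18, counted here and among the 11 rises, passed the filter on low counts through the shGlud1 group alone. The rises of POLH, SESN1 and PLK2 (3 genes) and the falls of GDF15, TP53I3, PHLDA3 and PLK3 (4 genes) kept their call under all 13 alternative ways of processing the counts. The other 12 calls were lost under at least 1 of them. For the 2-fold count and for the kept calls the share over all genes was not worked out. Neither count can therefore be read as particular to the members.

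**Figure D1:**
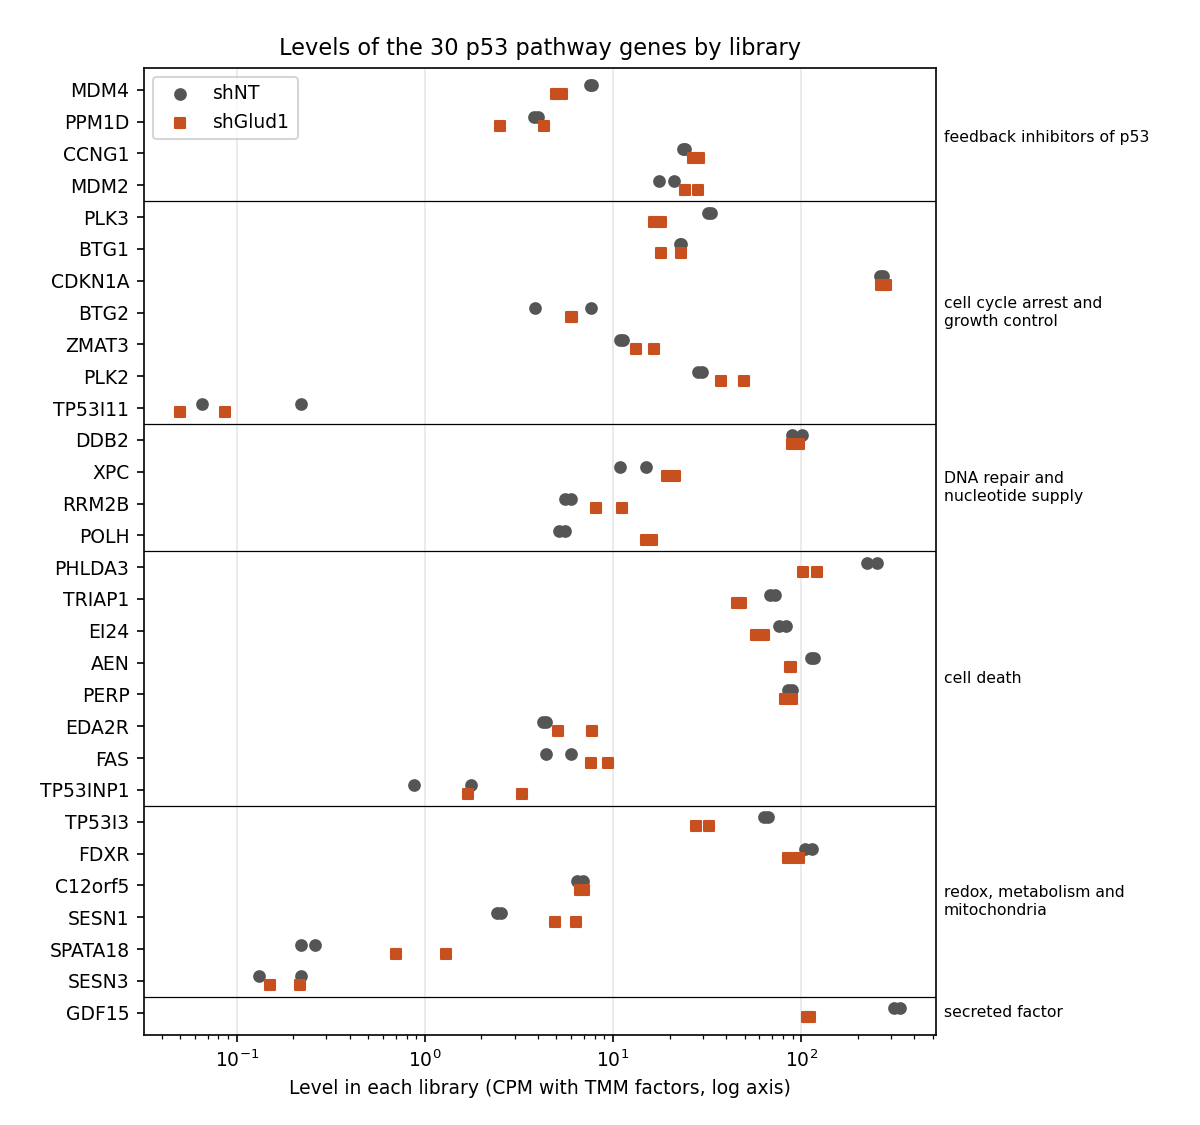
Level of each of the 30 genes in each library, in CPM with TMM factors on a log axis, with circles for shNT, squares for shGlud1 and genes grouped by role. GDF15 and PHLDA3 lie clearly apart between groups at high levels, CDKN1A lies at 261 to 281 CPM in all 4 libraries, and TP53I11 and SESN3 are near 0.

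The feedback inhibitors of p53 split, with MDM2 higher and MDM4 lower in shGlud1. MDM2, the ligase that marks p53 for degradation, had 17.5 and 21.1 CPM in shNT and 24.1 and 28.2 CPM in shGlud1, so that both shGlud1 libraries lay above both controls. It rose by 0.44 (SE 0.15, edgeR adjusted p = 0.00925). MDM4, which binds p53 and blocks its activity, had 7.69 and 7.58 CPM in shNT and 4.997 and 5.38 CPM in shGlud1. It fell by 0.56 (SE 0.23, adjusted p = 0.0307), although scaled by total counts alone the change was -0.03 and not called (adjusted p = 0.913). CCNG1, a cyclin G gene that recruits a phosphatase to MDM2, had 23.4 and 24.1 CPM in shNT and 28.7 and 26.5 CPM in shGlud1 and was not called (0.21, SE 0.15, adjusted p = 0.207). Under total counts CCNG1 was called higher at 0.73 (adjusted p = 7.09e-05), which lay 0.16 from the all-gene median. PPM1D, the gene of the phosphatase WIP1 that resets p53 signalling, had 3.81 and 3.99 CPM in shNT against 2.50 and 4.30 CPM in shGlud1, so its groups overlapped (-0.19, SE 0.29, adjusted p = 0.577).

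The MDM2 and MDM4 calls were among the less firm ones. MDM2 lost its call with DESeq2 (adjusted p = 0.0891), without shNT replicate 1 (0.229), without shGlud1 replicate 2 (0.0949), and with the transcript length trend removed, where its value was -0.25 (0.144). MDM4 lost its call with DESeq2 (0.15), with no filter on low counts (0.0797), without shNT replicate 1 (0.124), without shNT replicate 2 (0.107) and without shGlud1 replicate 1 (0.0704). With the length trend removed MDM4 fell by 1.21 (adjusted p = 1.66e-07). The longest annotated transcripts of both genes are long, at 12633 nt for MDM2 and 10073 nt for MDM4. Which forms these cells express was not tested. A ratio within a library needs no scaling, and the count of MDM2 over that of MDM4 was 2.28 and 2.78 in shNT and 4.82 and 5.24 in shGlud1. This pair and those of the ratios below were picked after the counts had been seen. The ratios therefore restate the values of the genes and add no support to the calls.

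Among the genes of arrest and growth control, the best-known p53 target was not called. CDKN1A encodes p21, the inhibitor of cyclin-dependent kinases, and had 272 and 261 CPM in shNT and 281 and 265 CPM in shGlud1, with overlapping groups. Its change was 0.04 (SE 0.14, edgeR adjusted p = 0.839). With the length trend removed it was 0.26, also not called (edgeR adjusted p = 0.0606). Scaled by total counts alone it was called higher at 0.55 (adjusted p = 7.42e-06), but there the median of all genes was 0.575, which put it -0.02 from that median. Per kilobase of the longest annotated transcript CDKN1A was the second most abundant member in shNT, at 117 CPM per kb after GDF15 at 269. By the same measure it was the most abundant in shGlud1, at 120 against 91.1 for GDF15.

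The polo-like kinase genes PLK2 and PLK3, both stress-inducible, changed in opposite directions. PLK2 (chr5:58453982-58460260, minus strand) had 29.8 and 28.4 CPM in shNT and 37.3 and 49.7 CPM in shGlud1, and rose by 0.58 (SE 0.14, adjusted p = 8.53e-05). PLK3 (chr1:44800225-44805990, plus strand) had 31.9 and 33.3 CPM in shNT and 18.1 and 16.5 CPM in shGlud1, and fell by 0.92 (SE 0.15, adjusted p = 7.84e-09). For both, no shGlud1 library reached into the range of the controls. The longest annotated transcripts are of similar length, at 2960 and 2492 nt. The count of PLK2 over that of PLK3 went from 0.933 and 0.851 in shNT to 2.06 and 3.01 in shGlud1. Between the shGlud1 libraries PLK2 differed 1.33-fold.

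The remaining arrest genes gave 1 further call. ZMAT3, a zinc finger gene whose RNA-binding product acts in p53-dependent growth control, had 11.3 and 10.9 CPM in shNT and 13.2 and 16.5 CPM in shGlud1. It rose by 0.43 (SE 0.19, adjusted p = 0.0365), a call lost with DESeq2 (0.194), with RLE factors (0.0663), without shNT replicate 1 (0.132), shNT replicate 2 (0.187) or shGlud1 replicate 2 (0.286), and with the length trend removed, where the value was -0.22 (0.267). BTG1 and BTG2 encode related antiproliferative proteins, and neither was called, at -0.15 (SE 0.16, adjusted p = 0.412) and 0.08 (SE 0.24, adjusted p = 0.776). With the length trend removed BTG1 fell by 0.46 (adjusted p = 0.00486), and under total counts BTG2 was called higher at 0.61 (0.0431). The BTG2 controls spread widely, at 7.62 and 3.86 CPM, on either side of the shGlud1 values of 6.00 and 6.08 CPM. TP53I11 had 3 and 1 counts in shNT and 1 and 2 in shGlud1, below the filter on low counts.

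**Figure D2:**
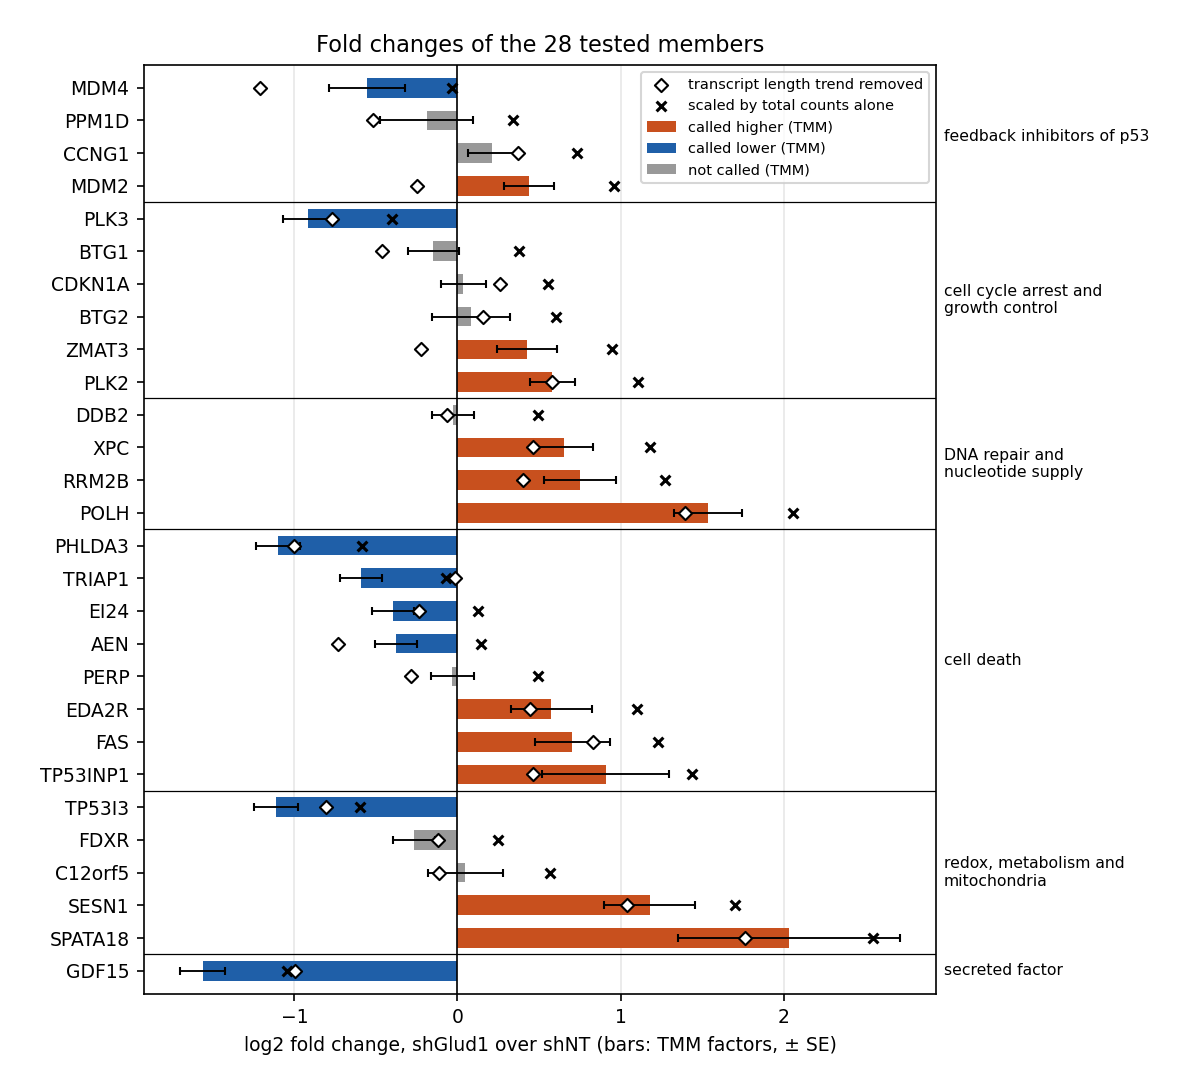
log2 fold change of shGlud1 over shNT for the 28 members tested, with bars and SE for the fit with TMM factors, diamonds for the fit with the transcript length trend removed and crosses for scaling by total counts alone. POLH, SESN1 and PLK2 stay above 0 and GDF15, TP53I3, PHLDA3 and PLK3 below 0 under all 3, while MDM2 and ZMAT3 change sign with the length trend removed and AEN and EI24 under total counts.

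Genes of DNA repair and nucleotide supply gave 3 rises and no fall among 4 members. Over all genes 31.9% rose and 29.1% fell, and 4 genes are too few for a share to be read. With the length trend removed 2 of the group were called higher, beside 26.9% of all genes. POLH (chr6:43576150-43615660, plus strand) encodes DNA polymerase eta, which copies past ultraviolet damage, and had 5.57 and 5.16 CPM in shNT and 15.0 and 16.1 CPM in shGlud1. It rose 2.90-fold (log2 fold change 1.54, SE 0.21, edgeR adjusted p = 1.26e-12), with the groups far apart and each pair of libraries close together. XPC, a damage sensor of nucleotide excision repair, had 15.0 and 10.9 CPM in shNT and 19.3 and 21.3 CPM in shGlud1, and rose by 0.66 (SE 0.17, adjusted p = 0.00038). The XPC call was lost without shNT replicate 2, the lower control (0.43, adjusted p = 0.116).

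RRM2B encodes the p53-inducible subunit of ribonucleotide reductase, which supplies deoxynucleotides outside S phase. It had 5.57 and 5.95 CPM in shNT and 8.15 and 11.2 CPM in shGlud1, and rose by 0.75 (SE 0.22, adjusted p = 0.00165). This call was lost with DESeq2 (0.0515), without shGlud1 replicate 2 (0.0792) and with the length trend removed (0.40, adjusted p = 0.0815). DDB2, the partner of XPC that recognises ultraviolet lesions, was the most abundant of these 4 genes, at 102 and 88.9 CPM in shNT and 97.1 and 89.9 CPM in shGlud1. Its groups overlapped and it was not called (-0.03, SE 0.13, adjusted p = 0.874). Under total counts it was called higher at 0.49, which lay -0.08 from the all-gene median. POLH therefore changed against DDB2 within the libraries, with a count ratio of 0.0548 and 0.0581 in shNT and 0.155 and 0.179 in shGlud1.

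In the cell death group the 8 members divided into 3 rises, 4 falls and 1 gene not called. Over all genes 31.9% rose and 29.1% fell, and 8 genes are too few for a share to be read. With the length trend removed the group had 1 rise and 3 falls, beside 26.9% and 28.8% of all genes. PHLDA3 (chr1:201464383-201469237, minus strand), which encodes a repressor of the survival kinase AKT, had 225 and 254 CPM in shNT and 122 and 102 CPM in shGlud1. It fell by 1.10 (SE 0.13, edgeR adjusted p = 4.01e-15), with both shGlud1 libraries far below both controls. TRIAP1, a small mitochondrial protein gene that restrains cell death, had 68.1 and 72.6 CPM in shNT and 45.8 and 47.6 CPM in shGlud1. It fell by 0.59 (SE 0.13, adjusted p = 2.12e-05). Without the length trend it was at -0.02 (adjusted p = 0.921), and under total counts at -0.07 (0.645).

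AEN and EI24 fell slightly, but under total counts both had values above 0 that were not called (0.14 and 0.13). AEN, which encodes an apoptosis-enhancing nuclease, had 116 and 113 CPM in shNT and 87.4 and 88.8 CPM in shGlud1 (-0.38, SE 0.13, adjusted p = 0.0071). The AEN call was lost without shNT replicate 1 (0.117) and without shNT replicate 2 (0.0699), and with the length trend removed AEN fell by 0.73 (adjusted p = 2.64e-08). EI24, an endoplasmic reticulum protein gene of autophagy, had 83.4 and 75.9 CPM in shNT and 57.5 and 63.4 CPM in shGlud1 (-0.40, SE 0.13, adjusted p = 0.00473). Its call was lost without shNT replicate 1 (0.139) and with the length trend removed (0.104). PERP, a desmosome-associated membrane protein gene, had 89.7 and 85.6 CPM in shNT and 82.2 and 89.3 CPM in shGlud1 and was not called (-0.03, SE 0.13, adjusted p = 0.85). With the length trend removed PERP was called lower at -0.29 (0.0416), and under total counts it was called higher at 0.49, also -0.08 from the all-gene median.

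The members of this group that rose were receptors and a regulator with low levels. FAS, the death receptor that starts caspase signalling, had 4.40 and 6.01 CPM in shNT and 7.60 and 9.42 CPM in shGlud1 and rose by 0.71 (SE 0.23, adjusted p = 0.00459). EDA2R, a receptor of the same TNF receptor superfamily, had 4.25 and 4.38 CPM in shNT and 5.10 and 7.72 CPM in shGlud1 and rose by 0.58 (SE 0.25, adjusted p = 0.0352). In both cases the controls lay below both shGlud1 libraries. TP53INP1, a nuclear regulator of p53 and of autophagy, had only 12 and 27 counts in shNT and 34 and 76 in shGlud1, and in CPM its groups overlapped (0.879 and 1.76 against 1.70 and 3.30). It was called higher at 0.91 (SE 0.39, adjusted p = 0.0332).

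All 3 of these rises depended on single libraries or on the test. Without shGlud1 replicate 2, FAS was at 0.54 (adjusted p = 0.0656), EDA2R at 0.245 (0.508) and TP53INP1 at 0.35 (0.625). Without shNT replicate 1, FAS was at 0.50 (0.157), EDA2R at 0.55 (0.149) and TP53INP1 at 0.51 (0.358), and EDA2R lost its call without shNT replicate 2 as well (0.60, adjusted p = 0.122). With DESeq2 the adjusted p was 0.0875 for FAS, 0.248 for EDA2R and 0.277 for TP53INP1. With limma-voom it was 0.0603 for EDA2R and 0.0525 for TP53INP1, and with RLE factors EDA2R had 0.0556. With the length trend removed FAS kept its call (0.83, adjusted p = 0.000317), whereas EDA2R (0.0922) and TP53INP1 (0.299) did not.

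Members that act in redox balance, metabolism and mitochondria also changed in both directions. SESN1 (chr6:108986437-109094819, minus strand) encodes a sestrin, a stress protein that restrains the growth kinase complex mTORC1, and had 2.42 and 2.55 CPM in shNT and 4.90 and 6.34 CPM in shGlud1. It rose 2.26-fold (log2 fold change 1.18, SE 0.28, edgeR adjusted p = 8.5e-05), with each shGlud1 library well above the controls. SESN3, its paralog, had 3 and 2 counts in shNT and 3 and 5 in shGlud1, also below the filter. SPATA18, a mitochondrial quality control gene, rose by 2.03 (SE 0.68, adjusted p = 0.00589) on only 3 and 4 counts in shNT and 14 and 30 in shGlud1, and it passed the filter on low counts through the shGlud1 group alone. Its call was lost with DESeq2 (0.126) and without shNT replicate 1 (0.0747), shNT replicate 2 (0.0566) or shGlud1 replicate 2 (0.237), and it was not tested with a filter of 1 CPM in 2 libraries.

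TP53I3 (chr2:24077433-24085861, minus strand), also called PIG3, encodes a quinone oxidoreductase-like protein linked to reactive oxygen species, and had 66.7 and 63.5 CPM in shNT and 32.5 and 27.6 CPM in shGlud1. It fell by 1.11 (SE 0.13, adjusted p = 1.82e-15), and the groups were far apart. FDXR, the ferredoxin reductase gene of mitochondria, had 105 and 114 CPM in shNT and 97.5 and 84.9 CPM in shGlud1. Its groups did not overlap, yet it was not called (-0.27, SE 0.13, adjusted p = 0.0604). It was called lower with RLE factors (-0.32, adjusted p = 0.0317), with a filter of 1 CPM (-0.28, 0.0485) and without shGlud1 replicate 1 (-0.39, 0.00454), and was at 0.25 under total counts. C12orf5, now named TIGAR, lowers flux through glycolysis and had 6.89 and 6.40 CPM in shNT and 6.70 and 7.03 CPM in shGlud1, with overlapping groups (0.05, SE 0.23, adjusted p = 0.867). It was called higher under total counts at 0.57, which lay -0.01 from the all-gene median. The count of SESN1 over that of TP53I3 was 0.0363 and 0.0402 in shNT and 0.151 and 0.23 in shGlud1. The longest transcripts of these 2 genes differ in length (3509 nt for SESN1 and 1998 nt for TP53I3).

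GDF15 (chr19:18374731-18389176, plus strand), a secreted stress cytokine of the TGF-beta family that is induced both by p53 and by the integrated stress response, showed the largest fall of the 30 genes. It had 335 and 311 CPM in shNT and 111 and 108 CPM in shGlud1, with little spread inside either group. It fell 2.95-fold, by 1.56 on the log2 scale (SE 0.14, edgeR adjusted p = 1.03e-27). The fall was 1.04 under total counts and 1.00 with the length trend removed, and it was called in all 13 alternatives. The count of CDKN1A, which was not called, over that of GDF15 went from 0.811 and 0.839 in shNT to 2.54 and 2.45 in shGlud1. The longest transcripts of this pair differ in length (2267 nt for CDKN1A and 1200 nt for GDF15). What lowered GDF15 was not tested.

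**Figure D3:**
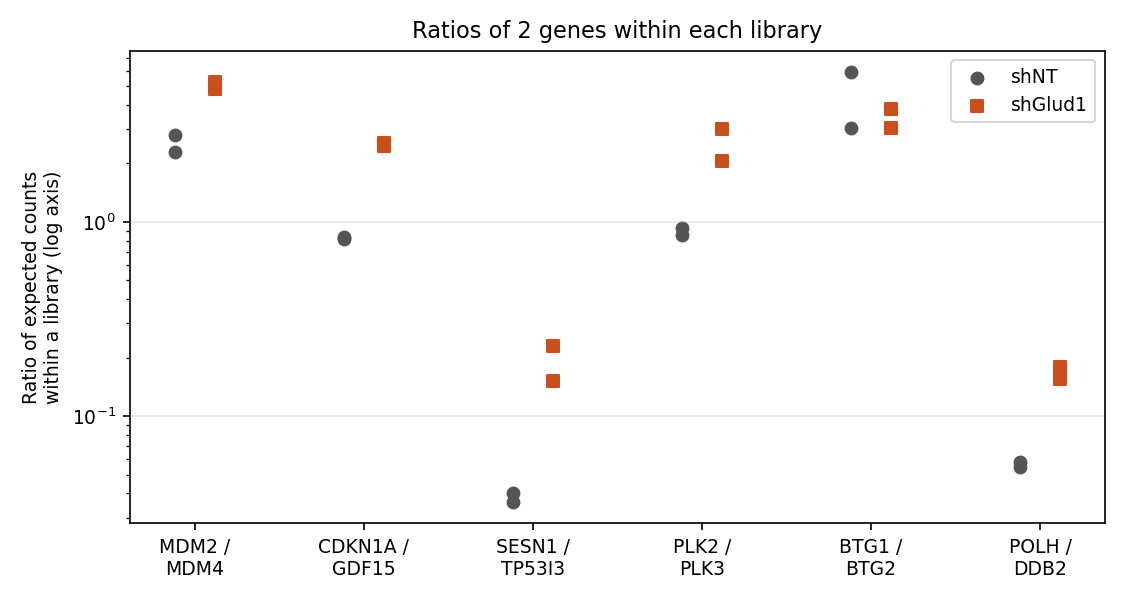
Ratio of the expected counts of 2 genes within each library, on a log axis, for 6 pairs picked after the counts had been seen, with circles for shNT and squares for shGlud1. In 5 pairs both shGlud1 libraries lie above both controls, and for BTG1 over BTG2 the groups overlap (3.03 and 5.88 in shNT, 3.02 and 3.80 in shGlud1).

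Fold change followed transcript length in these libraries, among the members as among all genes. Across the 14266 tested genes with a length, the Spearman correlation of log2 fold change with the longest annotated transcript was 0.447, and across the 28 members it was 0.422. These are correlations across genes of the same 4 libraries, which are not independent points. The median longest transcript was 3832 nt for the members that rose and 2474 nt for those that fell. Among all genes the median log2 fold change was -0.73 up to 1500 nt, -0.35 from 1500 to 2500 nt, 0.06 from 2500 to 4000 nt, 0.34 from 4000 to 6000 nt and 0.65 above.

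Set against genes of like length, some members stood near the trend and others away from it. TRIAP1 (1182 nt, -0.59) lay near the median of short genes, and MDM2 (0.44) and ZMAT3 (9406 nt, 0.43) lay below that of the longest ones. GDF15 (1200 nt, -1.56) lay below the short genes, and MDM4 was lower although the longest genes had a positive median. When a smooth trend on length was removed from each library, 7 members were called higher (25.0%, against 26.9% of all genes) and 8 lower (28.6%, against 28.8%). Of the 11 rises 6 stayed called, those of FAS, PLK2, POLH, SESN1, SPATA18 and XPC. SPATA18 was tested only because its shGlud1 counts passed the filter. Of the 8 falls 6 stayed called, those of AEN, GDF15, MDM4, PHLDA3, PLK3 and TP53I3. CCNG1 was then called higher (0.37, adjusted p = 0.0198), and BTG1 and PERP lower. How the length relation arose was not tested.

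**Figure D4:**
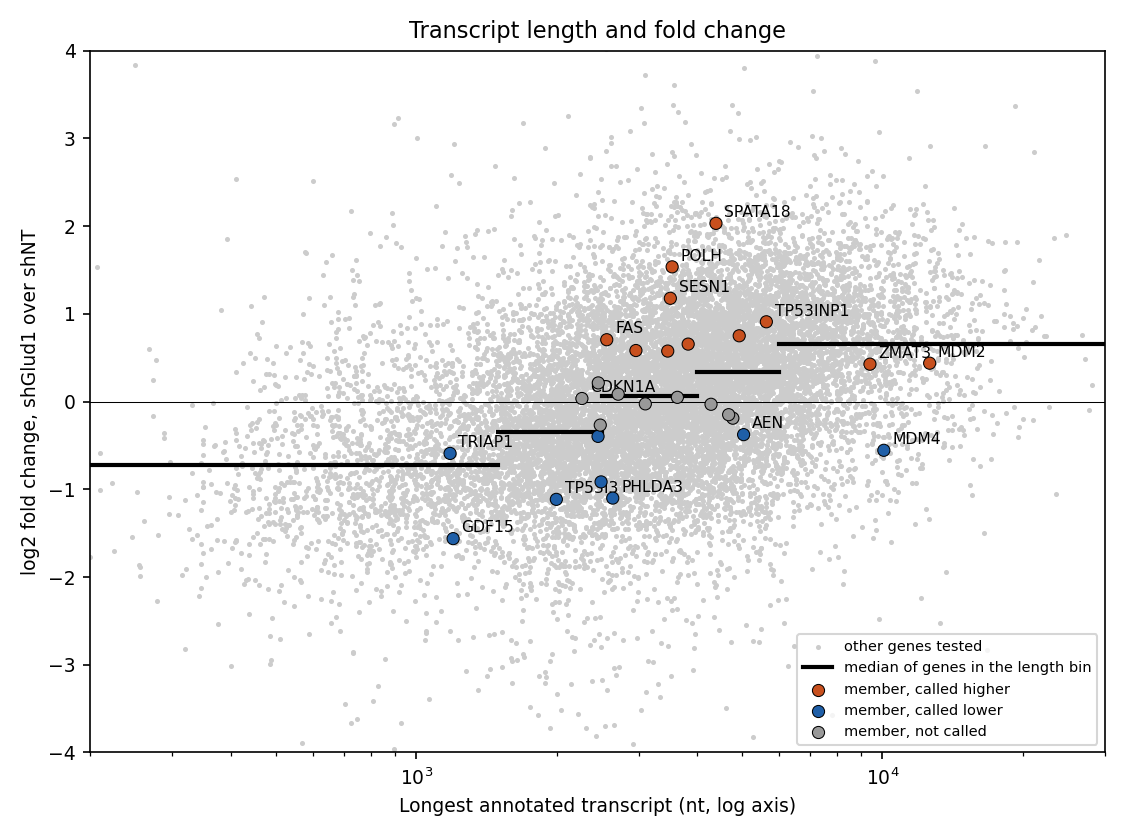
log2 fold change against the longest annotated transcript (log axis) for all tested genes in grey and for the 28 tested members, coloured orange where called higher, blue where called lower and grey with a black edge where not called, with black lines for the median of all genes in each length class (79 genes lie outside the axes). The median climbs from -0.73 for the shortest class to 0.65 for the longest. MDM2 and ZMAT3 lie under the line of their class, and POLH, SESN1 and SPATA18 lie above theirs. SPATA18 passed the filter on low counts through the shGlud1 group alone.

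Scaling also set how many members counted as higher. Under total counts alone the median of all genes moved from 0.06 to 0.575, and 17 members were called higher (60.7%, against 51.9% of all genes) and 4 lower (14.3%, against 13.7%). Those 4 were GDF15, PHLDA3, PLK3 and TP53I3. The members' median lay -0.01 from the all-gene median under either scaling, with TMM factors or total counts. Of all calls over all genes, 52.3% were higher with TMM factors and 79.1% with total counts.

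With TMM factors the genes that modify p53 were mostly higher. Of 12 genes for relatives of p53 and for kinases, acetylases and a scaffold that act with it, 10 were tested, of which 8 rose and 1 fell (median 0.86), beside 31.9% and 29.1% of all genes. The rises included PRKDC (1.501), the DNA-dependent protein kinase, and TP53BP1 (1.64), a damage response scaffold, and the fall was that of the acetyltransferase gene KAT5 (-1.54). Of 7 genes for ligases, the deubiquitinase USP7, SIRT1 and CDKN2A, 6 were tested, of which 4 rose, among them the ligase HUWE1 (2.03) and USP7 (1.18), and the ligase RCHY1 fell (-0.99). Of the genes named here, HUWE1 (14796 nt), PRKDC (13509 nt) and TP53BP1 (10384 nt) have long annotated transcripts. Those of USP7 (5412 nt), RCHY1 (4686 nt) and KAT5 (2296 nt) are shorter. Genes above 6000 nt had a median of 0.65. With the length trend removed these lists had 5 rises and 2 falls (median 0.55), and 3 rises and 1 fall (median 0.36). Over all genes 26.9% were then called higher and 28.8% lower.

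Other targets of p53 outside the 30 also included genes that rose and genes that fell. Over all genes 31.9% rose and 29.1% fell, and under total counts 51.9% and 13.7%. Of 13 apoptosis targets 12 were tested, of which 2 rose and 4 fell (median -0.23), and under total counts 5 were called higher and 4 lower (median 0.29). The mitochondrial apoptosis gene PMAIP1, also called NOXA, had 192 ± 11.9 CPM in shNT and 78.7 ± 8.29 CPM in shGlud1 and fell by 1.29, and SIVA1 fell by 1.06, while STEAP3 rose by 0.33. The apoptosome gene APAF1 was called higher at 1.78 on only 6 and 9 counts in shNT and 27.9 and 50 in shGlud1, and it passed the filter on low counts through the shGlud1 group alone. Of 20 further targets in arrest, repair and metabolism 18 were tested, of which 5 rose and 7 fell (median -0.02), and under total counts 9 were called higher and 4 lower (median 0.50). With the length trend removed the counts were 2 higher and 5 lower for the apoptosis targets and 4 higher and 6 lower for the further targets. Over all genes 26.9% were then called higher and 28.8% lower. SESN2, the third sestrin gene, had 240 and 233 CPM in shNT and 51.5 and 48.5 CPM in shGlud1 and fell by 2.24, whereas its paralog SESN1 rose. BLOC1S2 fell by 1.45, and CYFIP2 (1.20) and DCP1B (1.76) rose.

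Cell cycle genes that p53 is known to repress through p21 and the DREAM complex were higher while CDKN1A was not called. Of 18 tested, 16 rose and 0 fell (median 1.17), among them the mitotic kinase gene BUB1 (2.80) and the cyclin gene CCNB1 (1.87), and the 2 others had an unadjusted p of 0.0569 (BIRC5, -0.27) and 0.0323 (MCM5, 0.28), both named after their values were seen. The same counts, 16 higher and 0 lower, were found without the length trend, and under total counts all 18 were called higher. Over all genes 31.9% were called higher with TMM factors, 26.9% without the length trend and 51.9% under total counts. These genes change with any shift in the share of dividing cells, and in bulk RNA a change in the number of cells of a kind and in RNA per cell cannot be told apart.

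Reads of some members may include those of other genes. The library kit does not mark strand, and 7 members have at least 5% of their exon length shared with another annotated gene (BTG1, C12orf5, FAS, MDM2, PHLDA3, SESN1 and XPC). The share was 45.6% for C12orf5, 30.4% for XPC, whose neighbour LSM3 runs on the opposite strand, and 19.1% for PHLDA3. Counts that were not whole occurred in 3 members, BTG1, MDM2 and XPC. How reads were assigned between such genes was not tested.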

How the data were processed

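The authors deposited expected counts, which are estimated reads per gene and need not be whole (20.1% of values above 0 were not), for 57820 human Ensembl genes. Bowtie 0.12.2 and mm8, a mouse build, are named per the submitters' processing notes. All rows carry human identifiers, so the build behind the counts is uncertain, and the counting program is not given in the sources used here. Per the labels' protocols libraries were poly-A selected and amplified by PCR, and no molecular identifiers are named.

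Before testing, the values were rounded to the nearest whole count. Genes were filtered in edgeR 4.0.16 (R 4.3.3) by filterByExpr (minimum count 10) and scaled with TMM factors. The factors split by group, at 0.826 and 0.845 in shNT and 1.15 and 1.24 in shGlud1. Groups were compared by the edgeR quasi-likelihood test (robust, no block), with Benjamini-Hochberg adjustment over all 14616 genes tested. The biological coefficient of variation was 10.3%. The step was tested on simulated data in which few genes changed, in both directions and with no length trend. That test therefore does not cover data in which most genes are called. SE is the absolute log2 fold change over the square root of F. Depth was 16546849 to 18537314 counts, and genes with few counts carry wide errors.

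Alternatives were DESeq2 1.42.0, limma 3.58.1 (voom), RLE, upper-quartile and no factors, no filter, a minimum of 1 CPM in 2 libraries, a block for the replicate number, each library left out, and removal from each library of a lowess trend (span 0.3) of log2 counts, taken against the mean over libraries, on the length of the longest GENCODE 29 transcript, known for 97.6% of tested genes. Gene models came from GENCODE 29 (GRCh38) and promoter windows from RefSeq. The 30 members, the other lists and the markers were chosen with earlier results of these data known. All members are named, and of each other list up to 2 genes called in each direction by lowest p. A further gene of these lists is not reported here.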

Additional observations from a re-analysis of the deposited data

How the results depend on the processing

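Across all genes 8919 were called, and 6925 to 9592 under the 13 alternatives. Of 363 member values under them, 288 kept their direction and side of the threshold, 43 lost a call, 10 gained one and 22 changed sign. The 11 rises and 8 falls became 4 rises (all among the 11) and 7 falls with DESeq2, 17 and 4 under total counts, and 7 and 8 with the length trend removed. With DESeq2 29 members were tested, and over all genes 3370 of 17105 were called higher and 3555 lower. In the main fit 4662 of 14616 genes were called higher and 4257 lower, so calls over all genes were also fewer with DESeq2. Leaving out 1 library gave 4 to 11 rises and 5 to 8 falls: 5 and 5 without shNT replicate 1, 7 and 6 without shNT replicate 2, 11 and 8 without shGlud1 replicate 1, and 4 and 8 without shGlud1 replicate 2. A group left with 1 library is assumed to vary like the other group, and the cause of these shifts was not tested. The counts with 1 library left out are given without the share over all genes. They cannot be read as particular to the members. The members' median of 0.04 was -0.013 with RLE factors, 0.56 under total counts, -0.088 with the length trend removed, and -0.036 to 0.085 with 1 library left out. With the replicate number as a block 11 members rose and 8 fell, 9046 genes were called, and no member's call changed. The labels do not say what the number marks, and same-numbered libraries deviated together little (r = 0.0409 across genes), so the block tests no known pairing. GLUD1 stayed called lower throughout, at -0.45 under total counts and -1.18 to -0.81 with 1 library left out.

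Signs changed under total counts, by the shift in the median of all genes, for AEN (0.14), BTG1 (0.38), DDB2 (0.49), EI24 (0.13), FDXR (0.25), PERP (0.49) and PPM1D (0.34), of which DDB2 and PERP were called. Signs also changed, without a call, with RLE factors for C12orf5 (-0.0063) and CDKN1A (-0.019), with no filter for DDB2 (0.024) and PERP (0.019), and with the length trend removed for C12orf5 (-0.11), MDM2 (-0.25) and ZMAT3 (-0.22). With 1 library left out 6 uncalled members had values on both sides of 0: BTG2 (-0.34 to 0.64), C12orf5 (-0.0062 to 0.099), CDKN1A (-0.024 to 0.082), DDB2 (-0.12 to 0.072), PERP (-0.087 to 0.011) and PPM1D (-0.64 to 0.12). For these the cause was not tested.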
